A study of Mus musculus with 4 samples.

Results

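The Col3a1-high barcodes at 24 h were the 86 barcodes of the 24 h library with 2000 or more counts in all and at least 10 counts of Col3a1 per 10000. They were 10.5% of the 822 barcodes of that depth (exact binomial 95% interval 8.45% to 12.8%), out of 1328 barcodes at 24 h and 3298 in the series. Members were chosen by their deposited Col3a1 counts, so the level of Col3a1 describes the choice and no finding rests on it. They were compared with 184 barcodes of the same library and minimum depth that held no Col3a1 count, called Col3a1-free here, with Col3a1 left out.

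The data are Drop-seq counts, in which cells are caught in droplets with barcoded beads, so that a barcode stands for about 1 cell. Kidney Gli1+ cells in primary culture, from male mice of 12 weeks, were sampled in 4 libraries, 1 per time point. All cultures were kept without serum for 2 h, and those of 6, 12 and 24 h then received 1 ng/ml TGF-β, while the cells labelled 0 h were harvested without it. Members and Col3a1-free barcodes share 1 culture and 1 library, so their differences have neither replicates nor a test, and intervals cover counting error only. The number of mice pooled, their strain and the allele used to isolate the cells are not named in the labels.

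Col3a1 encodes the chain of type III collagen, a fibril-forming collagen of skin, vessels and stroma that is laid down early in scar tissue and assembles with types I and V. In the kidney, Gli1 is a marker of perivascular and interstitial mesenchymal cells, which can become myofibroblasts, the contractile, matrix-secreting cells of fibrosis. TGF-β drives that step through SMAD proteins and raises fibrillar collagens and smooth muscle actin.

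Promoters are shown for Col3a1 and for the 3 genes whose higher levels run through the results: Col5a1, Col1a2 and Acta2. Each line is 150 bases before the RefSeq transcription start (GRCm38.p6), 5′ to 3′ on the gene's strand, in lower case with searched motifs in capitals. The motifs were CCAAT, which NF-Y binds, the TEAD-binding letters GGAATG, the SMAD-binding letters CAGAC, and TATAAA of the TATA box, sought on both strands, and a match on the other strand stands as its complement, such as GTCTG.
Col3a1, chr1:45311388-45311537, plus strand: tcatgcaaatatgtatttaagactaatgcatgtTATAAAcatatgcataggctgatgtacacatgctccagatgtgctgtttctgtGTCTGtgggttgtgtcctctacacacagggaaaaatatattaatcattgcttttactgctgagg
Col5a1, chr2:27886275-27886424, plus strand: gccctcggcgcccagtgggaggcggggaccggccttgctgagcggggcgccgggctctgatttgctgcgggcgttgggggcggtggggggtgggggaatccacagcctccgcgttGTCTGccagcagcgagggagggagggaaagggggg
Col1a2, chr6:4505468-4505617, plus strand: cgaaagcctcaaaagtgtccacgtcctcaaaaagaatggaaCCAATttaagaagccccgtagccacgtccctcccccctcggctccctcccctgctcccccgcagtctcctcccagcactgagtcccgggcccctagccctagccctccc
Acta2, chr19:34255374-34255523, minus strand: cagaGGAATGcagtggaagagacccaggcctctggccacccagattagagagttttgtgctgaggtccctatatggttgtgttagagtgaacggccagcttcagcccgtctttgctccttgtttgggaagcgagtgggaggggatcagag
Col3a1 held GTCTG 64 bases and TATAAA 117 bases before its start, and Col5a1 held GTCTG 35 bases before. Col1a2 held CCAAT 109 bases before its start and Acta2 held GGAATG 146 bases before. No 1 of the 4 motifs was in all 4 windows and none overlapped another. Of 27025 promoters of that length in the RefSeq table, 25.3% held CCAAT, 7.64% GGAATG, 27.8% CAGAC and 8.08% TATAAA on either strand. These matches describe letters and say nothing of binding.

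Libraries differed in depth. From 0 h to 24 h they held 192, 658, 1120 and 1328 barcodes with 106826, 778793, 5687966 and 6166324 counts. No 0 h barcode and only 50 of the 6 h barcodes reached 2000 counts, so the rule can be applied with some precision at 12 h and 24 h only. No barcode string of the 24 h library recurred in another library. Within it, 11 of the 86 members and 15 of the 184 Col3a1-free barcodes were 1 base from another barcode, against 15.6% of all barcodes of that depth, and a cell may be split over such barcodes.

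Few counts placed a barcode in the group. Members held 2 to 31 Col3a1 counts with a median of 7, and 1 member had 2, 8 had 3 or 4, 47 had 5 to 9 and 30 had 10 or more. Their 615008 counts were 9.97% of the 24 h library, and they held 829 Col3a1 counts. Just inside the threshold were barcodes at 10, 10.1 and 10.2 Col3a1 counts per 10000, and just outside were 9.94, 9.85 and 9.83. There were 77 members at 10 to under 20 per 10000 and 9 at 20 or more, the highest at 35.6. No gap separates members from the other barcodes, as the plot of Col3a1 against depth shows, and the threshold divides a continuous range.

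**Figure D1:**
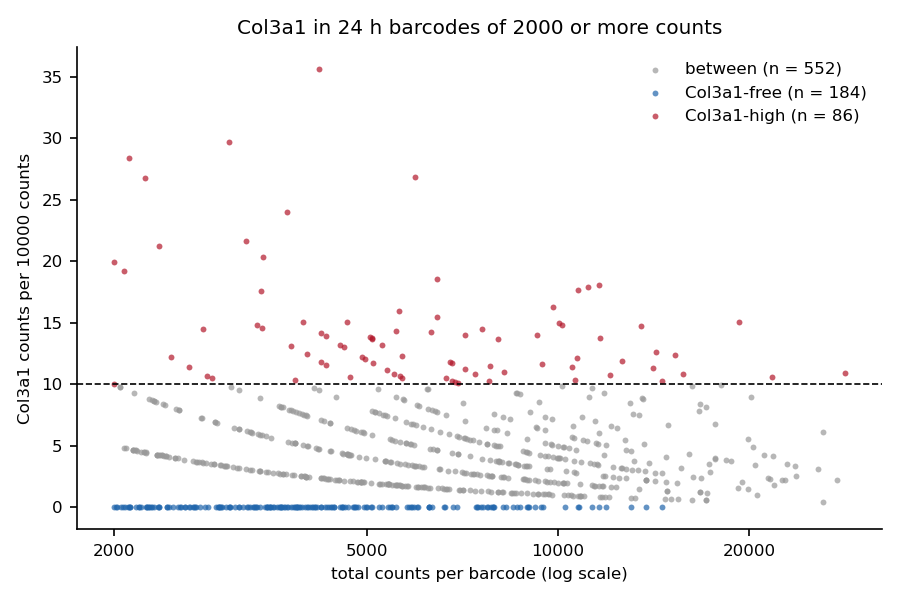
Col3a1 counts per 10000 (y) against total counts on a log scale (x) for the 822 barcodes of the 24 h library with 2000 or more counts; each point is a barcode and the dashed line is the threshold of 10. The 86 members lie at every depth and continue from the 552 barcodes between the groups, and the curved bands are barcodes that share a whole number of Col3a1 counts.

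The spread of Col3a1 over barcodes describes the counts that chose the members, and no result rests on it. With each barcode thinned to 2000 counts, the mean was 0.813 Col3a1 counts and the variance was 1.62 times the mean. Of 397 genes with a mean within 1.5-fold, the median ratio of variance to mean was 1.05 and only 3 genes (0.756%) had a higher one. Acta2, at a mean of 0.774 counts, had a ratio of 2.71. Each barcode's counts were also split at random into 2 equal sets, a check added after the data were seen. The 107 barcodes that met the rule in set 1 held 14.3 Col3a1 counts per 10000 there and 9.67 in set 2 (8.66 to 10.8). The 335 barcodes with no Col3a1 count in set 1 held 2.68 per 10000 in set 2 (2.35 to 3.04), and 45.1% of them had a count there. Part of the level by which barcodes were selected thus did not recur in set 2, and Col3a1-free means that no count was seen, not that the gene was silent.

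The share of barcodes meeting the rule was higher at 24 h than at 12 h and 6 h, and no 0 h barcode had the depth to be counted. At 12 h it was 16 of 733 barcodes, or 2.18% (1.25% to 3.52%), and at 6 h it was 0 of 50, with an exact upper limit of 7.11% (6% by a limit of 3 counts). With barcodes thinned to 2000 counts, so that depth is equal, the shares were 20.2% at 24 h (17.5% to 23.1%) and 6.14% at 12 h (4.51% to 8.13%). Thinning raises both shares because 2 counts then suffice. Over whole libraries Col3a1 stood at 0, 27.0, 173 and 428 CPM (counts per 1000000 counts) from 0 h to 24 h. The 0 h value rests on 106826 counts, and its upper limit of 34.5 CPM lies within the 6 h interval of 16.7 to 41.2 CPM. Each time is 1 culture, so time and library cannot be told apart.

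Marker genes, chiefly the abundant ones, place the members and the Col3a1-free barcodes alike among mesenchymal cells of the culture. Members were deeper than Col3a1-free barcodes, with medians of 5663.5 and 3889.5 counts, so each member was paired with a free barcode within 10% of its total. This gave 78 pairs with medians of 5461.5 and 5342.5 counts. The other 8 members, of 10645 to 28381 counts, had no partner. Mesenchymal markers summed to 11539 CPM in matched members and 9112 in matched free barcodes, and Col1a2 was counted in 78 of 78 barcodes on each side. Abundant genes carried much of these sums: Col1a2 gave 2066 of 5553 counts in members, and Vim 1568 of 4236 in free barcodes. Postn of the same list had no count on either side, and Dcn, Thy1, Pdgfra and Pdgfrb were low, as given below. Markers of loop and distal tubule, lymphocytes and red cells had no count on either side. Proximal tubule markers had 0 and 1 counts, macrophage markers 0 and 1, and endothelial markers 3 and 3, in members and free barcodes. Synpo gave 96 of 97 podocyte list counts in members and 88 of 89 in free barcodes, with Nphs1 at 0 in both. Ncam1 made up 103 of 124 and 105 of 122 counts of the Schwann and neural list, and Smtn made up 33 of 42 and 33 of 34 of the smooth muscle list, with Cnn1 at 0. No list of another cell type marked a group of barcodes in which free Col3a1 RNA could be measured. Mitochondrial counts were 1.75% and 1.83%, and ribosomal protein counts 15.8% and 15.9%, in members and free barcodes. Scrublet called 4 of the 86 members, 1 of the 184 Col3a1-free barcodes and 14 of all 822 barcodes of that depth doublets. The share was thus larger in members.

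Outside Col3a1 the matched groups were close. Of 1899 genes at a mean of 100 CPM or more, 57 (3.00%) were at least 1.5-fold higher in members and 29 (1.53%) at least 1.5-fold lower. Higher genes were 66.3% of these calls. The share was 80.9% with DESeq2 size factors, 57.1% with thinning, 56.8% with equal weight per barcode, 54.5% in barcodes of 4000 or more counts and 52.1% against all other barcodes under the threshold. The ratio was above 1 for 50.7% of the 1899 genes. The counting interval lay above 1 for 144 genes (7.58%) and below 1 for 116 (6.11%), and the median log2 ratio of all 1899 was 0.00. At least 2-fold higher were Acta2, Vcam1 and Col5a1. All ratios below are the CPM of matched members over that of matched Col3a1-free barcodes, with 95% counting intervals.

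Fibrillar collagens were higher together in members. All 5 that reached 100 CPM were above 1 (median log2 ratio 0.51), 2 of them by at least 1.5-fold, and 4 had an interval above 1, as did 7.58% of all tested genes. The others of the 10 listed were too low to be tested. Col5a1, a chain of type V collagen, which sits inside type I fibrils and sets their width, ran from 0 to 8.86 counts per 10000 in members with a median of 1.27. In Col3a1-free barcodes it ran from 0 to 5.19 with a median of 0, and it was counted in 43 and 25 of 78 barcodes. The groups overlapped widely, and the summed levels were 177 and 86.0 CPM, a ratio of 2.06 (1.40 to 3.07). An unstranded count would include its opposite-strand neighbour 2810430I11Rik, which cannot be told apart because no source used here gives the strand setting.

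Col1a2, a chain of type I collagen, the main fibril of scar, was counted in every matched barcode. Its level ran from 12.4 to 90.0 counts per 10000 in members with a median of 40.4, and from 4.26 to 58.0 in Col3a1-free barcodes with a median of 29.1. Most members were above the free median, though the ranges overlap, and the ratio was 1.51 (1.41 to 1.62). Col5a2, the partner chain in type V collagen, ran from 0 to 34.0 counts per 10000 in members (median 11.7) and from 0 to 26.2 in free barcodes (median 8.25), with a ratio of 1.43 (1.26 to 1.62). Col5a2 is the neighbour of Col3a1, at chr1:45374321-45503282 on the minus strand, 24614 bases from the end of Col3a1 at chr1:45311538-45349706 on the plus strand. Col1a1, the other chain of type I collagen, had medians of 4.81 and 3.27 counts per 10000 and a ratio of 1.31 (1.08 to 1.60). Barcodes with 10 or more Col1a1 counts per 10000 numbered 11 members and 3 free barcodes. Col11a1, of the related type XI collagen, stood at 218 and 194 CPM with a ratio of 1.13 (0.84 to 1.51), an interval that holds 1.

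Acta2, smooth muscle actin and the defining gene of the myofibroblast, had the highest ratio of the 1899 genes at 100 CPM or more. It ran from 0 to 40.6 counts per 10000 in members (median 3.58) and from 0 to 23.4 in Col3a1-free barcodes (median 1.15). It was counted in 54 and 41 of 78 barcodes, and 16 members against 8 free barcodes reached 10 per 10000. The sums were 797 and 355 CPM, a ratio of 2.25 (1.87 to 2.71). A single member held 15.1% of the Acta2 counts, and without the top barcode the ratio was 1.96. With all barcodes thinned to 2000 counts, 52.3% of members (41.3% to 63.2%) and 29.3% of free barcodes (22.9% to 36.5%) had an Acta2 count. Most members, like most free barcodes, were therefore low in Acta2.

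The other contractile genes did not share the pattern of Acta2. Of 14 tested genes of that list, Acta2 alone was at least 1.5-fold higher, 6 were above 1, and the median log2 ratio was -0.03. Cald1, caldesmon, which binds actin and tropomyosin, was slightly lower in members at a ratio of 0.82 (0.77 to 0.87). Tns1, tensin, an adaptor of focal adhesions, had a ratio of 0.73 (0.56 to 0.95). Tagln, a myofibroblast marker, had only 3 and 4 counts and allows no comparison.

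**Figure D2:**
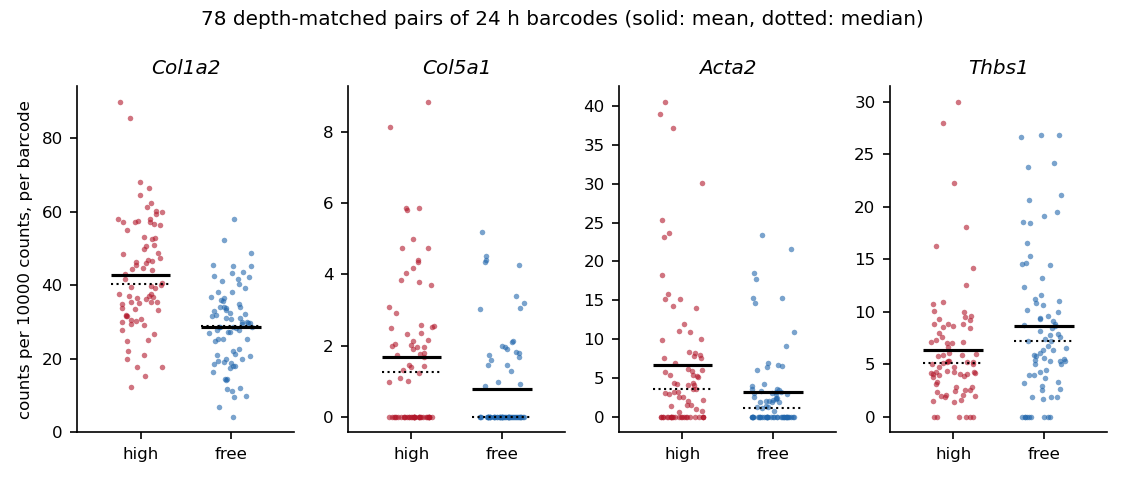
Counts per 10000 counts in each of 78 matched members (high) and 78 matched Col3a1-free barcodes (free) at 24 h for Col1a2, Col5a1, Acta2 and Thbs1; solid lines are means and dotted lines medians, and each panel has its own axis. All 4 genes overlap between the groups, and Acta2 reaches 40.6 in members and 23.4 in free barcodes.

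Among matrix glycoproteins and enzymes, single members were higher and the lists as a whole were not. Of 15 tested glycoproteins and proteoglycans the median log2 ratio was -0.02, with 3 intervals above 1 and 3 below. Fbn1, fibrillin-1 of elastic microfibrils, had a ratio of 1.57 (1.19 to 2.07). Sparc, a collagen-binding protein that helps fibrils form, was counted in every matched barcode, with medians of 31.5 and 23.0 counts per 10000 and a ratio of 1.28 (1.19 to 1.39). Fn1, fibronectin, was lower in members, with medians of 33.2 and 37.3 counts per 10000 and a ratio of 0.84 (0.78 to 0.90). Of 15 collagen-processing genes the median log2 ratio was 0.03 and 10 were above 1. Loxl2, which cross-links collagen, had a ratio of 1.36 (1.17 to 1.58), and Bmp1, which cleaves procollagen, 0.69 (0.51 to 0.94). Mmp14, a membrane-bound collagenase, had a ratio of 1.45 (1.19 to 1.78).

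Chaperones of the endoplasmic reticulum, where collagen chains fold, stood at slightly higher levels in members. Of 12 tested, 9 were above 1, where 50.7% of all tested genes were, and 5 had an interval above 1 and 1 below, where 7.58% and 6.11% of all did. None was 1.5-fold apart and the median log2 ratio was 0.14. Calr, the chaperone calreticulin, stood at 1729 and 1301 CPM, a ratio of 1.33 (1.20 to 1.48). The 80 ribosomal protein genes had a median log2 ratio of 0.00.

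Vcam1, an adhesion molecule that holds leukocytes, had the second highest ratio of the 1899 genes. It ran from 0 to 29.5 counts per 10000 in members (median 1.86) and from 0 to 17.2 in Col3a1-free barcodes (median 0.861). The ratio was 2.11 (1.63 to 2.73), and 8 members against 3 free barcodes reached 10 per 10000. The value depended on which barcodes were compared: without matching it was 1.42, and against all other barcodes under the threshold 1.21. Ccl2 and Ccl7, neighbouring genes for monocyte-attracting chemokines 8258 bases apart, had ratios of 1.58 (1.16 to 2.17) and 1.68 (1.22 to 2.32). In members 1 barcode held 17.1% of Ccl2 counts and 18.0% of Ccl7 counts. Without matching Ccl2 stood at 1.00 and Ccl7 at 0.87, and with thinning Ccl2 stood at 1.46 and Ccl7 at 0.99. At 5 or more Col3a1 counts per 10000 Ccl2 had a ratio of 1.16. Neither chemokine difference was stable to the choice of barcodes. With these genes the 5 tested members of the chemokine and cytokine list had a median log2 ratio of 0.66 when matched and -0.01 when thinned.

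The other genes among the 12 highest ratios have no single role. Prrx1, a transcription factor of mesenchyme, had a ratio of 1.88 (1.34 to 2.67) in matched barcodes and 1.12 with thinning. Rbm3 and Hnrnpdl, RNA-binding proteins, had ratios of 1.91 and 1.89. Uqcrc2, a subunit of respiratory complex III, had 1.87, Usp10, a deubiquitinase, 1.86, and R3hdm1 1.85. Anxa8, an annexin that binds membranes with calcium, had 1.82, and Cpne3, a calcium-dependent membrane-binding copine, 1.78. Rsu1, a focal adhesion protein, had 1.78 (1.36 to 2.34) and was counted in 63 members and 49 free barcodes. With thinning Hnrnpdl stood at 1.24. At 20 or more Col3a1 counts per 10000, which 9 barcodes reached, Rbm3 and Usp10 stood at 1.00 and Uqcrc2 at 4.02.

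Receptors and other mesenchymal genes were mostly too low to compare. Pdgfrb, the receptor for PDGF-B on pericytes and fibroblasts, had 33 counts in members and 13 in free barcodes, a ratio of 2.46 (1.26 to 5.08) below the floor of 100 CPM. Pdgfra had 17 and 8 counts and a ratio of 2.06 (0.84 to 5.50). Dcn had 1 and 0 counts, Thy1 had 2 and 2, and Postn had none. Mki67, a gene of dividing cells, had 11 counts in members and 0 in free barcodes, which makes it at least 3.55-fold higher against a floor of 3 counts. These counts came from 4 members, and 1 of them held 54.5%.

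The targets of TGF-β that could be tested were on the lower side in members. All 6 tested genes of that list were below 1, with a median log2 ratio of -0.44 and 4 with an interval below 1, as 6.11% of all tested genes had. Ctgf, a matricellular growth factor and a target of both SMAD and YAP, had medians of 3.85 and 5.03 counts per 10000 and a ratio of 0.69 (0.58 to 0.83). Pmepa1, a membrane protein that restrains SMAD signalling, had a ratio of 0.78 (0.67 to 0.92). Timp1, an inhibitor of matrix proteases, had a ratio of 0.95 (0.82 to 1.11), an interval that holds 1. Ctgf overlaps a gene on the opposite strand, as do Hmga2, Galk2, Fbn1 and Uqcrc2.

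Of 10 tested targets of YAP and TEAD, regulators that respond to cell stretch, Ctgf among them, 2 were above 1, 2 had an interval below 1, and the median log2 ratio was -0.14. Ankrd1, a nuclear protein of that list, ran from 0 to 41.6 counts per 10000 in members (median 10.8) and from 0 to 54.1 in free barcodes (median 16.3), with a ratio of 0.69 (0.62 to 0.77). Thbs1, thrombospondin-1, which releases active TGF-β from its latent form, had medians of 5.13 and 7.20 counts per 10000 and a ratio of 0.67 (0.57 to 0.78). There were 10 members and 24 free barcodes at 10 or more Thbs1 counts per 10000.

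Malat1, a long RNA that stays in the nucleus, was lower in members. It ran from 15.99 to 306 counts per 10000 in members (median 83.2) and from 30.7 to 335 in Col3a1-free barcodes (median 112), with a ratio of 0.71 (0.68 to 0.74). Meg3, also a nuclear RNA, had a ratio of 0.75, and Neat1 had 0.98. Ctla2a, which resembles the inhibitory region of cysteine proteases, had medians of 18.2 and 29.9 counts per 10000 and a ratio of 0.62 (0.57 to 0.68). Hmga2, a chromatin protein of immature and invasive cells, had a ratio of 0.59 (0.47 to 0.73), and 2 members against 12 free barcodes reached 10 per 10000. Malat1 is often read as a measure of nuclear RNA, and its part in the other differences was not tested.

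Other genes among the 12 lowest ratios were of varied function. Mphosph10, of the complex that processes ribosomal RNA, had a ratio of 0.51, and Phf20, of a histone acetyltransferase complex, 0.54. Tll1, a relative of Bmp1 that cleaves procollagen, had 0.54 (0.36 to 0.81). Plin2, a coat protein of lipid droplets, and Galk2, a sugar kinase, had 0.55 each. Scoc had 0.59, and 1.13 with thinning. Rnf187, a ubiquitin ligase, had 0.60 and Zfhx3, a transcription factor, 0.61. With thinning Mphosph10 stood at 0.80 and Plin2 at 0.88. At 5 or more Col3a1 counts per 10000 Tll1 stood at 0.92 and Galk2 at 0.88. At 20 or more, which only 9 barcodes reached, Phf20 stood at 0.17.

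**Figure D3:**
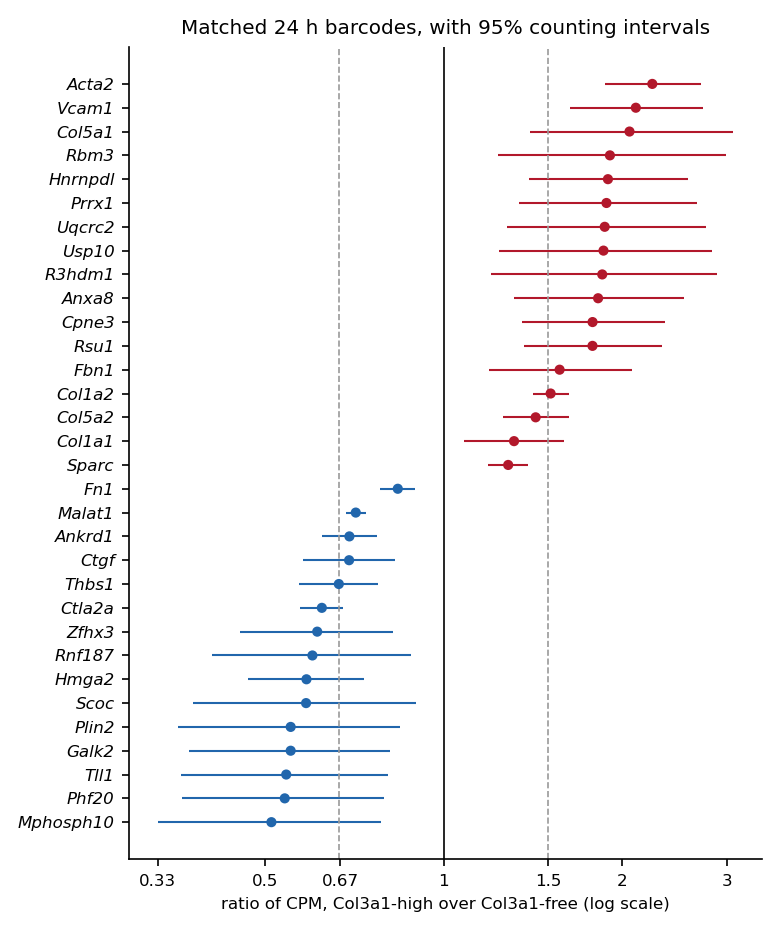
Ratio of CPM in matched members over matched Col3a1-free barcodes at 24 h (x, log scale) for the highest and lowest ratios and other genes described in the text; bars are 95% counting intervals and dashed lines mark 1.5-fold either way. Acta2 leads at 2.25, and Malat1, at 0.71, has the narrowest interval.

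For the 8 genes plotted over 5 ranges of Col3a1, levels also differed among barcodes under the threshold. The 822 barcodes were divided into those with none, above 0 and under 5, 5 to under 10, 10 to under 20, and 20 or more Col3a1 counts per 10000, with median depths of 3889.5, 7394, 5860, 6463 and 3228 counts. Col1a2 stood at 2809, 3119, 3502, 4312 and 4695 CPM in these ranges. Col5a2 stood at 846, 932, 1161, 1264 and 1422 CPM. Both collagens thus were higher in each successive range, though the last holds only 9 barcodes. Acta2 stood at 310, 301, 540, 873 and 926 CPM, level in the first pair of ranges and higher above 5 per 10000. Col5a1 stood at 84.7, 93.6, 147, 188 and 198 CPM. The 9 barcodes of the last range held 6 Col5a1 counts, so its interval ran from 72.8 to 432 CPM.

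Genes that were lower in members went the other way. Thbs1 stood at 881, 982, 804, 726 and 694 CPM, highest in the range above 0 and under 5. Ctla2a stood at 2878, 2840, 2386, 1901 and 1719 CPM, and Malat1 at 14048, 13079, 10245, 9508 and 9358 CPM. Neither Ctla2a nor Malat1 was higher in any range than in the range before it.

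**Figure D4:**
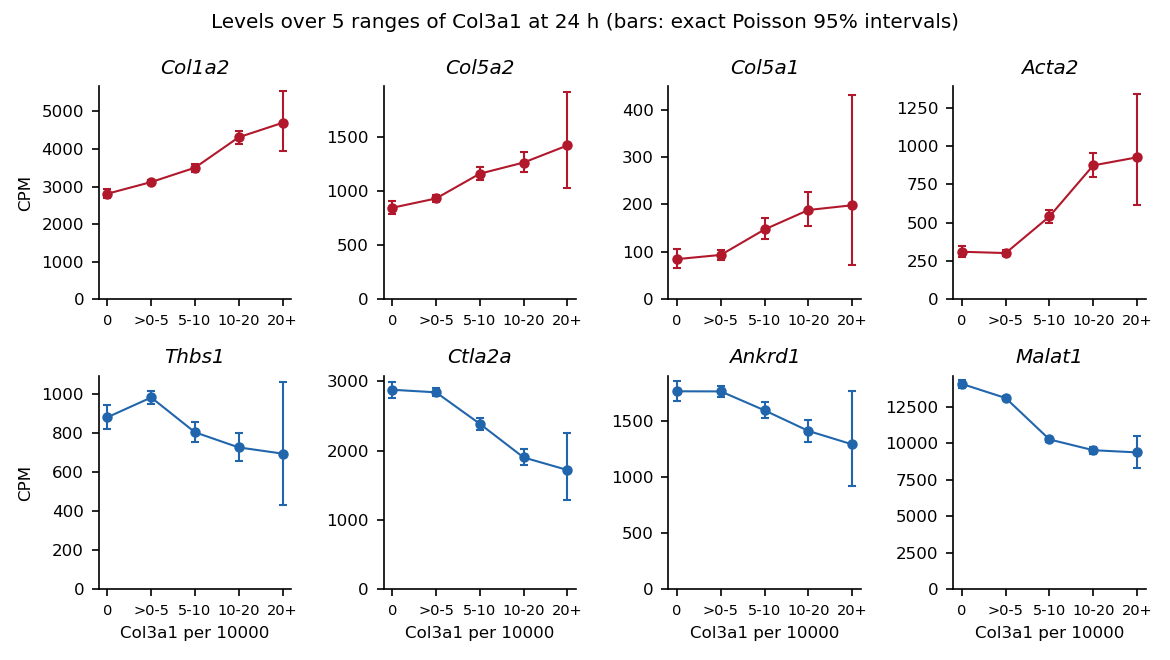
CPM (y, from 0) in 5 ranges of Col3a1 counts per 10000 (x) for 4 genes that were higher in members (top) and 4 that were lower (bottom), over 822 barcodes of the 24 h library; bars are exact Poisson 95% intervals. Col1a2 goes from 2809 to 4695 CPM and Malat1 from 14048 to 9358, and the last range holds only 9 barcodes.

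Barcodes that are neither members nor Col3a1-free gave a further view, added after the data were seen. Those at 5 to under 10 were paired by depth with those above 0 and under 5 Col3a1 counts per 10000, 174 pairs in all. By 1.5-fold or more, only 5 of 1911 genes were higher and 3 lower. Acta2 had a ratio of 2.21 (1.93 to 2.55), Col5a1 1.90 (1.47 to 2.46), Fbn1 1.61 (1.34 to 1.95), Col5a2 1.35 (1.24 to 1.46) and Col1a2 1.15 (1.10 to 1.20). Vcam1 had 1.28 (1.11 to 1.48), Malat1 0.74 (0.72 to 0.75), Thbs1 0.90 (0.82 to 0.98) and Ankrd1 0.939 (0.882 to 0.999). Ctgf, at 0.96 (0.86 to 1.07), had an interval that holds 1. So did Prrx1 (0.98), Rbm3 (0.96), Hnrnpdl (1.00), Uqcrc2 (1.02), Usp10 (0.96), R3hdm1 (0.85), Cpne3 (1.07) and Rsu1 (1.05), all among the 12 highest ratios. Anxa8, also among them, had 1.25 (1.04 to 1.51). Mphosph10, Phf20, Tll1, Plin2, Scoc and Rnf187, among the 12 lowest ratios, had intervals that hold 1 as well. Ctla2a, Hmga2, Galk2 and Zfhx3 had intervals below 1.

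The 12 h library, which the rule did not use, had 16 barcodes at 10 or more Col3a1 counts per 10000. With 16 pairs, 339 of 2130 genes (15.9%) were higher by 1.5-fold or more and 240 (11.3%) lower, but only 77 (3.62%) and 49 (2.30%) of all genes were so with an interval off 1. The threshold was therefore lowered to 5 per 10000 in both libraries. This gave 61 pairs at 12 h, where 80 of 2048 genes (3.91%) were higher and 46 (2.25%) lower by at least 1.5-fold. The interval lay above 1 for 5.81% of these genes and below 1 for 5.62%. At 24 h it gave 166 pairs, and the other 94 of the 260 barcodes at that threshold had no partner, while all 61 had one at 12 h. In these pairs 16 of 1912 genes (0.837%) were higher and 6 (0.314%) lower by that fold. The interval lay above 1 for 6.90% and below 1 for 5.54%.

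Fibrillar collagens and Acta2 were on the higher side in both libraries. At 12 h Acta2 stood at 163 and 70.0 CPM, from 56 and 24 counts, a ratio of 2.34 (1.42 to 3.94), against 1.62 (1.38 to 1.90) at 24 h. Col5a1 had ratios of 1.85 (1.24 to 2.80) at 12 h and 1.68 (1.25 to 2.29) at 24 h. Col1a2 had 1.47 (1.34 to 1.60) and 1.32 (1.25 to 1.39), Col5a2 1.42 (1.17 to 1.71) and 1.42 (1.29 to 1.57), and Col1a1 1.43 (1.14 to 1.79) and 1.16 (1.00 to 1.34). The Col1a1 interval at 24 h, 0.998 to 1.34, holds 1. Fbn1, Sparc, Loxl2, Mmp14 and Vcam1 had intervals above 1 in both libraries, like Acta2, Col5a1, Col1a2 and Col5a2. The 12 highest genes at 24 h were chosen at the threshold of 10. At the threshold of 5, 11 of them were above 1 at 12 h, where the median log2 ratio of all 2048 tested genes was 0.02. An interval above 1 was found there for 4 of them, as for 5.81% of all.

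For the genes lower at 24 h, the same comparison was made. Of the 12 lowest at 24 h, chosen at the threshold of 10, 9 were below 1 at 12 h at the threshold of 5. An interval below 1 was found there for 3 of them, as for 5.62% of all tested genes. Ctla2a had ratios of 0.67 (0.59 to 0.75) at 12 h and 0.82 (0.77 to 0.87) at 24 h, Hmga2 0.71 (0.59 to 0.84) and 0.80 (0.69 to 0.94), and Malat1 0.82 (0.78 to 0.86) and 0.73 (0.71 to 0.76). Ctgf and Thbs1 were higher at 12 h, with 1.38 (1.13 to 1.68) and 1.36 (1.13 to 1.63), and lower at 24 h, with 0.81 (0.71 to 0.93) and 0.85 (0.77 to 0.95). Ankrd1 was lower at 24 h, with 0.82 (0.76 to 0.88), but not at 12 h, with 1.12 (0.99 to 1.28), an interval that holds 1. Of all 122 named genes, 23 had intervals off 1 the same way in both libraries and 3 opposite ways. The same count was not made over all tested genes, so no excess among the named genes is read from it. Some of the named genes were chosen by their 24 h ratios. The difference between libraries itself was not tested.

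**Figure D5:**
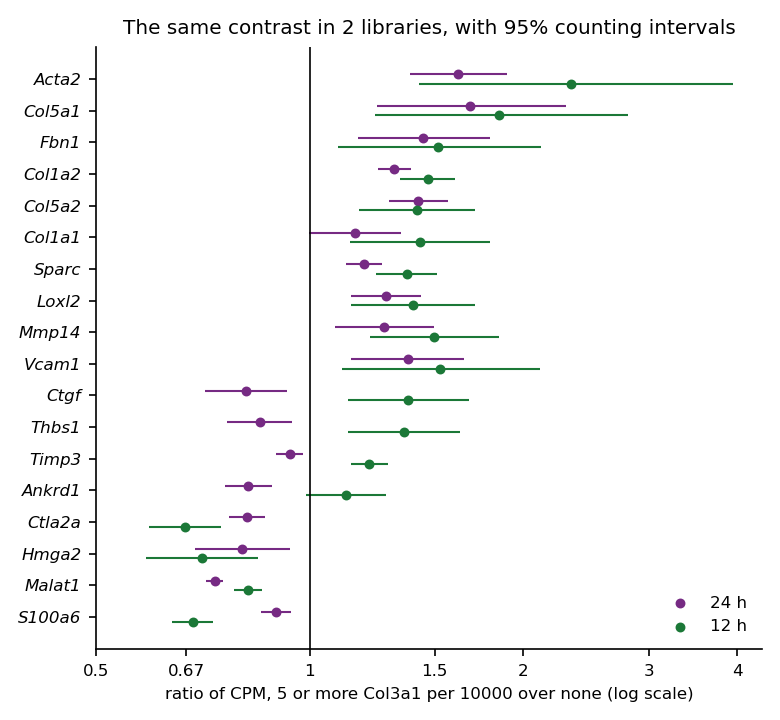
Ratio of CPM in barcodes with 5 or more Col3a1 counts per 10000 over depth-matched barcodes with none (x, log scale) at 24 h (166 pairs) and 12 h (61 pairs), with 95% counting intervals. Acta2 and the collagens lie above 1 in both libraries, and Ctgf and Thbs1 lie on opposite sides.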

How the data were processed

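Drop-seq counts were deposited by the authors as 1 table of 17391 genes and 3298 barcodes, whole numbers that are not normalized, with the library named in each column. STAR 2.5.3a and the build mm10 are named per the submitters' processing notes. No source used here gives the counter, annotation, strand setting or collapsing of UMIs. The table holds no barcode under 200 genes.

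Counts were summed over matched barcodes and scaled to CPM, leaving out Col3a1. Pairs were formed within 10% of total counts, to the nearest total, deepest member first, each free barcode used at most 1 time. Ratios carry exact conditional binomial intervals, CPM exact Poisson intervals and shares exact binomial (Clopper-Pearson) intervals, all at 95%. They cover counting error only, and barcodes of 1 library are not replicates. A gene without a count was bounded at 3 counts. Genes at a mean of 100 CPM or more and at least 1.5-fold apart were counted.

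Named genes were the 12 highest and 12 lowest ratios with an interval off 1 and no barcode holding over 20% of the counts, passing over ribosomal protein and mitochondrial genes and those with predicted or clone names. To these came 25 fixed genes and up to 4 members of each of 30 lists, and 10 marker lists were summed. Some genes that these rules chose are not reported here. Members and lists were chosen with earlier results of these data known. Doublets called by Scrublet, run on the 12 h and 24 h libraries, stayed in. Alternatives were all barcodes thinned or unmatched, equal weight per barcode, other scalings, floors, folds, depths and Col3a1 thresholds, all other barcodes as the comparison, and removal of doublets or near-identical barcodes. Alternatives chosen after the data were seen were members with 5 or more Col3a1 counts, and leaving out the 5 deepest pairs; ratios without the top barcode were added likewise. The ratios and calls were also run on simulated counts with counting error only, so that run says nothing of spread among barcodes. Positions are from GENCODE M21 and promoters from RefSeq (18 of the 24 highest and lowest genes had an entry). The RefSeq start differs from the GENCODE gene start for Col1a2 and Acta2.

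R 4.3.3 with edgeR 4.0.16 (TMM factors) and DESeq2 1.42.0 (size factors) was used for scaling only, with no test of either. The rest used scanpy 1.11.5, scipy 1.17.1, pandas 2.3.3, numpy 2.4.6 and matplotlib 3.10.9 in Python 3.11.15.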

Additional observations from a re-analysis of the deposited data

Results flagged for a closer look

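Ctgf, Thbs1 and Timp3 lay on opposite sides of 1 in the libraries of 24 h and 12 h, with both counting intervals off 1, when barcodes with 5 or more Col3a1 counts per 10000 were compared with depth-matched Col3a1-free barcodes. Ctgf, the matricellular growth factor, had a ratio of 0.813 at 24 h and 1.38 at 12 h. Thbs1, thrombospondin-1, had 0.851 at 24 h and 1.36 at 12 h. Timp3, an inhibitor of matrix proteases bound to the matrix, had 0.938 at 24 h and 1.21 at 12 h. With 1 library per time the difference between libraries was not tested. The threshold of 5 was used because only 16 barcodes at 12 h reached 10.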

How the results depend on the processing

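No paired analysis was possible because each time point has 1 library. Calls near 1.5-fold moved with the setting. Of 57 genes higher and 29 lower at 24 h, thinning gave 93 and 70, no matching 35 and 16, a floor of 50 CPM 210 and 130, a floor of 200 CPM 13 and 8, no floor with a pseudocount of 10 CPM 940 and 781, and a 2-fold limit 3 and 1. A Col3a1 threshold of 20 (9 barcodes) gave 468 and 382, and a threshold of 5 gave 16 and 6. Against all other barcodes 25 were higher and 23 lower. Equal weight per barcode gave 48 lower, DESeq2 size factors 18, totals that leave out ribosomal protein and mitochondrial genes 44, and barcodes of 4000 or more counts 51. Higher genes were 60.2% of calls with TMM.

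At 12 h, 339 higher and 240 lower became 839 and 624 at a floor of 50 CPM, 107 and 63 at 200 CPM, 3002 and 2827 with no floor, 119 and 71 at 2-fold, and 80 and 46 at a threshold of 5; without matching 119 were lower. A threshold of 20 gave no value at 12 h, where no barcode reached it. Thinned shares were 20.2% for 10.5% at 24 h and 6.14% for 2.18% at 12 h.

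Of 67 named genes with an interval off 1, 56 kept their side of 1 under the 19 alternatives, and 16 values of the others reversed. Of 46 named genes whose interval holds 1, 35 crossed 1 under some alternative, in 95 values. The 16 reversed values, all of genes with an interval off 1, were as follows. With thinning they were B2m at 0.957, Ccl7 0.995, Igfbp4 0.964, Ppib 1.03 and Scoc 1.13. Without matching Ccl7 reversed to 0.870, and against all other barcodes mt-Nd5 reversed to 0.970. At a threshold of 20 the reversed values were B2m 0.677, Ccl7 0.803, Igfbp4 0.803, Meg3 1.41, Mmp14 0.892, Nupr1 1.11, Timp3 1.03, mt-Nd5 0.908 and mt-Rnr2 1.23. The chemokine list median reversed to -0.0074 (thinned), -0.051 (no matching), -0.14 (200 CPM), -0.0084 (no floor) and -0.091 (threshold of 20), and that of nuclear RNAs to 0.18 (threshold of 20). The causes were not tested. At a threshold of 20, Col5a1 stood at 6.02, Fbn1 2.68, Col1a1 2.18 and Hmga2 0.19. Only 9 barcodes reached that threshold, and its ratios are given without intervals. Ratios ran from 1.62 to 3.36 for Acta2 and 1.32 to 1.57 for Col1a2 over these alternatives.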
